A study of Homo sapiens with 24 samples.

Results

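The genes described here are CYP1A1, CYP1B1, AHRR, TIPARP and AHR, which encode the aryl hydrocarbon receptor and the best known genes it switches on. They are 5 of the 14585 genes in the deposited count table and were found by matching the Ensembl identifiers of its rows to these symbols. The 5 genes were chosen with the response to the extracts in these same libraries already known, so their changes against control are given as a description with a standard error and no p. RNA was sequenced from A549, a human lung carcinoma cell line with wild-type p53, and from Huh7, a human hepatocellular carcinoma cell line with mutant p53, both given as wild-type genotype in the labels. Each line was left as a control or treated with an extract of Pulsatilla chinensis (library names with BTW), Bupleurum chinense (CH) or Polyporus umbellatus (ZL), with 3 replicates in each of the 8 groups and 24 libraries in all. The plant and fungal material was extracted with aqueous ethanol and the dried powder taken up in DMSO. The dose and time used for the sequenced cells, and whether control cells received DMSO, are not given in the sources used here. The comparisons ask how these herbs, used in Traditional Chinese Medicine against lung and liver cancer, alter transcription in each line.

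The aryl hydrocarbon receptor (AHR) is a transcription factor of the bHLH-PAS family that waits in the cytosol in a complex with the chaperone HSP90 and the cochaperone p23. Planar aromatic ligands, many of them of plant or dietary origin, bind it, and it then enters the nucleus, pairs with ARNT and binds DNA at the xenobiotic response element. Its classical targets are the cytochrome P450 enzymes CYP1A1 and CYP1B1, which oxidise such ligands, and 2 genes whose products act back on the receptor. These are AHRR, a repressor that competes for ARNT, and TIPARP, an ADP-ribosyltransferase that limits AHR activity. In liver the pathway is best known for inducing drug-metabolising enzymes, and in lung for the response to smoke constituents.

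The 5 genes lie on 5 chromosomes. In GRCh38, CYP1A1 (ENSG00000140465) spans chr15:74719542-74725536 on the minus strand, and its canonical transcript has 7 exons and 2603 bases. CYP1B1 (ENSG00000138061) spans chr2:38066973-38109902 on the minus strand, with 3 exons and 5218 bases in the canonical transcript. AHRR (ENSG00000063438) spans chr5:321714-438291 on the plus strand, with 11 exons and 5661 bases. TIPARP (ENSG00000163659) spans chr3:156673235-156706770 on the plus strand, with 6 exons and 3861 bases. AHR (ENSG00000106546) spans chr7:16916359-17346152 on the plus strand, with 11 exons and 6243 bases.

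The promoters are shown because these genes are classed together as 1 transcription factor and genes that respond to it. The binding element of that factor has the core GCGTG. The lines below give the 250 bases directly before the start of transcription, 5′ to 3′ on the strand of the gene, for the 4 genes matched in the promoter table of RefSeq (GRCh38.p14). Capitals mark the letters GCGTG or, where the match is on the other strand, CACGC.

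CYP1A1: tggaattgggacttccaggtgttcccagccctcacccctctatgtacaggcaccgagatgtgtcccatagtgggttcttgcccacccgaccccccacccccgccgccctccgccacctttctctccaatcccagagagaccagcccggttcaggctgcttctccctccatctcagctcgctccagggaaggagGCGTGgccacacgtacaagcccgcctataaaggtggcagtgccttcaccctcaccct

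AHRR: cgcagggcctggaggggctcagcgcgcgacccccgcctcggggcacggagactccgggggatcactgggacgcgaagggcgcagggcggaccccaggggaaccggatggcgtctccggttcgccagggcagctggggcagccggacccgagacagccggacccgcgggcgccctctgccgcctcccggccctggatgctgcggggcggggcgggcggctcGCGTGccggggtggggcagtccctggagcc

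TIPARP: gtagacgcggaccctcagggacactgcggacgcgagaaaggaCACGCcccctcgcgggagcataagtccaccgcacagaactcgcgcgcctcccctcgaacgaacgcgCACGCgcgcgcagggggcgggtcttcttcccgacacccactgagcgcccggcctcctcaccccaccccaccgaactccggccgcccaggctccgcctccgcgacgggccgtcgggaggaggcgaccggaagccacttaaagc

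AHR: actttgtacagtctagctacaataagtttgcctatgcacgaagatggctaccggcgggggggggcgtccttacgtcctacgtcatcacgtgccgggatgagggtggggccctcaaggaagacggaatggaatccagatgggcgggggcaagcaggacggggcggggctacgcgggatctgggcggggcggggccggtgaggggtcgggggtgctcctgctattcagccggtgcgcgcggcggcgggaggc

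These windows are chr15:74725529-74725778 on the minus strand for CYP1A1, chr5:321464-321713 on the plus strand for AHRR, chr3:156674340-156674589 on the plus strand for TIPARP and chr7:17298402-17298651 on the plus strand for AHR. CYP1A1 held 1 match, from 57 to 53 bases before the start. AHRR held 1 match, from 30 to 26 bases before the start. TIPARP held 2 matches on the other strand, from 208 to 204 and from 142 to 138 bases before the start. The AHR window held 0 matches. The motif is short, and 43.6% of the 11758 windows of genes in the count table held at least 1 match on either strand, while 15.5% held at least 2. A match is therefore a description of these letters and not a binding site. Bases outside these windows were not searched.

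The libraries held between 6803704 and 24345541 estimated counts, with a median of 10515192. Mitochondrially encoded genes took between 1.93% and 4.38% of them. The labelled cell types were checked with marker genes. All 7 hepatocyte markers were higher in untreated Huh7 than in untreated A549 cells, and their summed level was at least 11320 CPM in every Huh7 library and at most 37.3 CPM in every A549 library. The 5 lung epithelial markers were mixed. KRT7, KRT8 and KRT18 were higher in untreated A549 cells, KRT7 with 1640 to 1707 CPM there and no counts in untreated Huh7 cells. EPCAM and the surfactant gene SFTPB were lower in A549 than in Huh7 cells, by 0.94 and 1.23 on the log2 scale, and SFTPB stood at 1.12 to 1.44 CPM in A549 cells and 2.56 to 3.94 CPM in Huh7 cells. Summed immune markers reached at most 43.0 CPM and summed fibroblast markers at most 24.5 CPM in any library. The Huh7 libraries of P. umbellatus differed most among themselves. The median deviation of a gene from the other replicates of its group was 0.323 on the log2 scale in replicate 2, 0.227 in replicate 3 and 0.179 in replicate 1, against at most 0.124 in the other groups. The changes of the 5 genes in that group, and of some named pathway genes, are therefore also given without replicate 2. All other values for that group, and all its differences between the lines, include replicate 2. The labels do not say whether replicates were separate cultures, so p-values measure the spread between these samples, which may be technical.

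The untreated lines were compared first, since this is not the contrast on which the genes were chosen, although its 6 libraries also served there as the controls. Levels between genes are compared as CPM per kb of the canonical transcript. Which transcripts the cells used was not determined, so the order of genes with close levels depends on this choice of length. In untreated A549 cells CYP1B1 was highest at 18.98 ± 0.998 CPM per kb (SD, n = 3), followed by TIPARP at 16.76 ± 0.74 and AHR at 14.22 ± 1.97. The range of CYP1B1, from 18.2 to 20.1, lay above that of TIPARP, from 16.1 to 17.6, and that of TIPARP lay above that of AHR, from 12.03 to 15.9. AHRR followed at 1.10 ± 0.11 CPM per kb and CYP1A1 at 0.119 ± 0.061. In untreated Huh7 cells the order was different. CYP1A1 was highest at 51.5 ± 1.6 CPM per kb, followed by AHR at 40.84 ± 0.54, TIPARP at 11.22 ± 0.92, CYP1B1 at 0.499 ± 0.062 and AHRR at 0.303 ± 0.056, and no neighbours in this order overlapped.

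**Figure D1:**
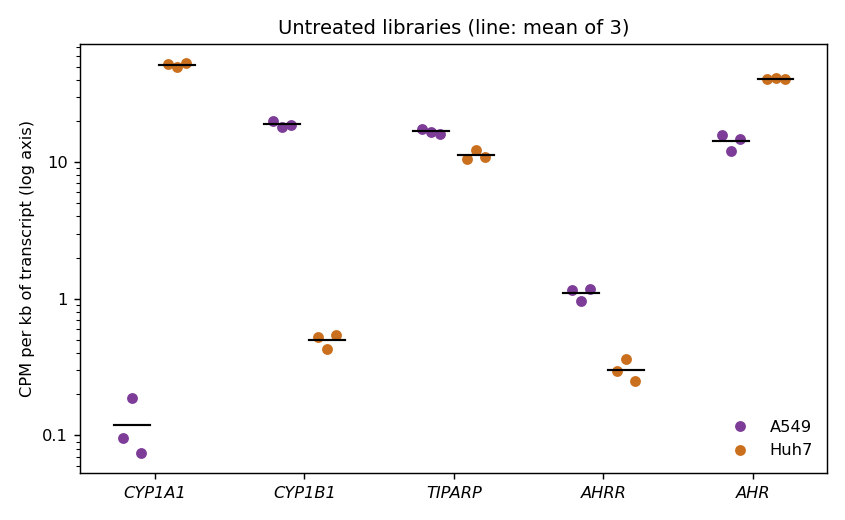
Levels of the 5 genes in the untreated libraries as CPM per kb of the canonical transcript on a log axis, with a point for each of 3 libraries per line and a bar at their mean. CYP1A1 and AHR lie higher in Huh7 cells, and CYP1B1, TIPARP and AHRR lie higher in A549 cells.

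The 2 P450 enzymes stood in opposite order in the 2 lines. CYP1A1 was close to the limit of detection in untreated A549 cells, with 2, 5 and 2 counts in the 3 libraries, against 2687, 2077 and 3267 counts in Huh7 cells. The summed counts, scaled by library size, were 428 times as high in Huh7 cells, with an exact 95% counting interval from 225 to 935. The fitted difference, A549 minus Huh7, was -8.14 ± 0.31 on the log2 scale (SE, adjusted p = 1.16e-16, quasi-likelihood test of edgeR over 14585 genes). CYP1B1 differed the other way, by 5.15 ± 0.17 (adjusted p = 2.19e-17), which is 35.5 times as high in A549 cells. The receptor itself was 2.87 times as high in Huh7 cells, with a difference of -1.52 ± 0.14 (adjusted p = 1.35e-09). The repressor AHRR was higher in A549 cells by 1.78 ± 0.45 (adjusted p = 0.00082), and TIPARP by 0.58 ± 0.11 (adjusted p = 5e-05). All 5 genes thus differed between the untreated lines. The same test called 33.9% of all genes higher in A549 cells and 36.8% higher in Huh7 cells, so a call in this comparison is common.

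Among the partners of the receptor, ARNT was slightly lower in untreated A549 cells, by 0.22 ± 0.06 on the log2 scale (edgeR, adjusted p = 0.00415). Of the 12 genes of the receptor complex and its coregulators, 6 were higher in A549 cells and 5 higher in Huh7 cells, with a median difference of 0.27 against -0.06 over all genes. Of 23 other genes known to respond to AHR, 15 were higher in A549 cells and 6 higher in Huh7 cells, with a median difference of 1.95. Over all genes the shares were 33.9% higher in A549 cells and 36.8% higher in Huh7 cells. Of 15 target genes of NRF2, which defend against oxidants, 14 were higher in A549 cells, with a median difference of 1.63. ALDH3A1, an aldehyde dehydrogenase, gave 1306, 1310 and 1311 CPM in untreated A549 cells and 0.354, 1.49 and 1.43 CPM in untreated Huh7 cells. CYP1A2, the neighbour and closest relative of CYP1A1, was lower in A549 cells by 0.89 ± 0.27 (adjusted p = 0.00463), with 16 to 43 counts per library there and 95 to 147 in Huh7 cells. Reads that fit both CYP1A genes could be split between them by the transcript quantification.

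CYP1A1 rose with all 3 extracts in both lines. In A549 cells its level was 0.249, 0.491 and 0.193 CPM in the controls. It was 6.44, 4.49 and 5.21 CPM with P. chinensis, 3.63, 6.28 and 11.5 CPM with B. chinense and 6.61, 6.51 and 4.58 CPM after P. umbellatus. Every treated A549 library lay above every control, and the ranges of the 3 herbs overlapped. The fitted log2 fold changes were 3.41 ± 0.52 (SE) for P. chinensis, 3.79 ± 0.51 for B. chinense and 3.52 ± 0.51 for P. umbellatus. These fitted values were held down by the prior count of 2 on so few control reads. From summed counts of 154, 167 and 211 against 9 in the controls, the ratios were 16.9 with P. chinensis (exact 95% counting interval from 8.68 to 37.7), 21.5 with B. chinense (from 11.1 to 47.9) and 19.4 after P. umbellatus (from 10.1 to 43.1). These intervals cover counting error only. By fitted change CYP1A1 ranked 6 of 13634 genes with P. chinensis, 1 with B. chinense and 2 after P. umbellatus in A549 cells. In Huh7 cells it ranked 208, 109 and 56 of 13876 genes in the same order of herbs.

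In Huh7 cells CYP1A1 started from a far higher level, at 135.8, 129.0 and 137.0 CPM in the controls. It read 375.2, 384.4 and 373.8 CPM with P. chinensis, 283.6, 280.7 and 305.2 CPM with B. chinense and 387.2, 299.7 and 407.0 CPM after P. umbellatus. All 9 treated libraries lay above the controls. The log2 fold changes were 1.55 ± 0.09 with P. chinensis, 1.13 ± 0.09 with B. chinense and 1.5 ± 0.09 after P. umbellatus, or 1.62 without replicate 2 of that group. The B. chinense libraries lay below those of P. chinensis, with a difference of 0.42 ± 0.09, while the ranges of P. umbellatus overlapped both. Even the highest treated A549 library, at 11.5 CPM, stayed below the lowest untreated Huh7 library.

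CYP1B1 also rose with every extract in both lines. In A549 cells the controls gave 104.8, 94.7 and 97.6 CPM. The level was 236.4, 217.3 and 238.3 CPM with P. chinensis, 286.1, 416.1 and 431.0 CPM with B. chinense and 407.1, 312.6 and 321.4 CPM after P. umbellatus. All treated libraries lay above the controls, and P. chinensis gave the lowest of the 3 levels without overlap with the other two. The log2 fold changes were 1.19 ± 0.14, 1.89 ± 0.14 and 1.75 ± 0.14 in the same order of herbs. In Huh7 cells the controls gave only 2.73, 2.24 and 2.85 CPM, from 36 to 68 counts per library. The level was 20.03, 22.1 and 19.6 CPM with P. chinensis, 8.0, 7.62 and 6.11 CPM with B. chinense and 14.8, 13.8 and 11.96 CPM after P. umbellatus. No groups overlapped, and P. chinensis gave the highest level in Huh7 cells where it gave the lowest of the herbs in A549 cells. The log2 fold changes in Huh7 cells were 2.97 ± 0.16 with P. chinensis, 1.44 ± 0.17 with B. chinense and 2.36 ± 0.16 after P. umbellatus, or 2.34 without replicate 2. P. chinensis minus B. chinense was -0.70 ± 0.13 on the log2 scale in A549 cells and 1.53 ± 0.15 in Huh7 cells.

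**Figure D2:**
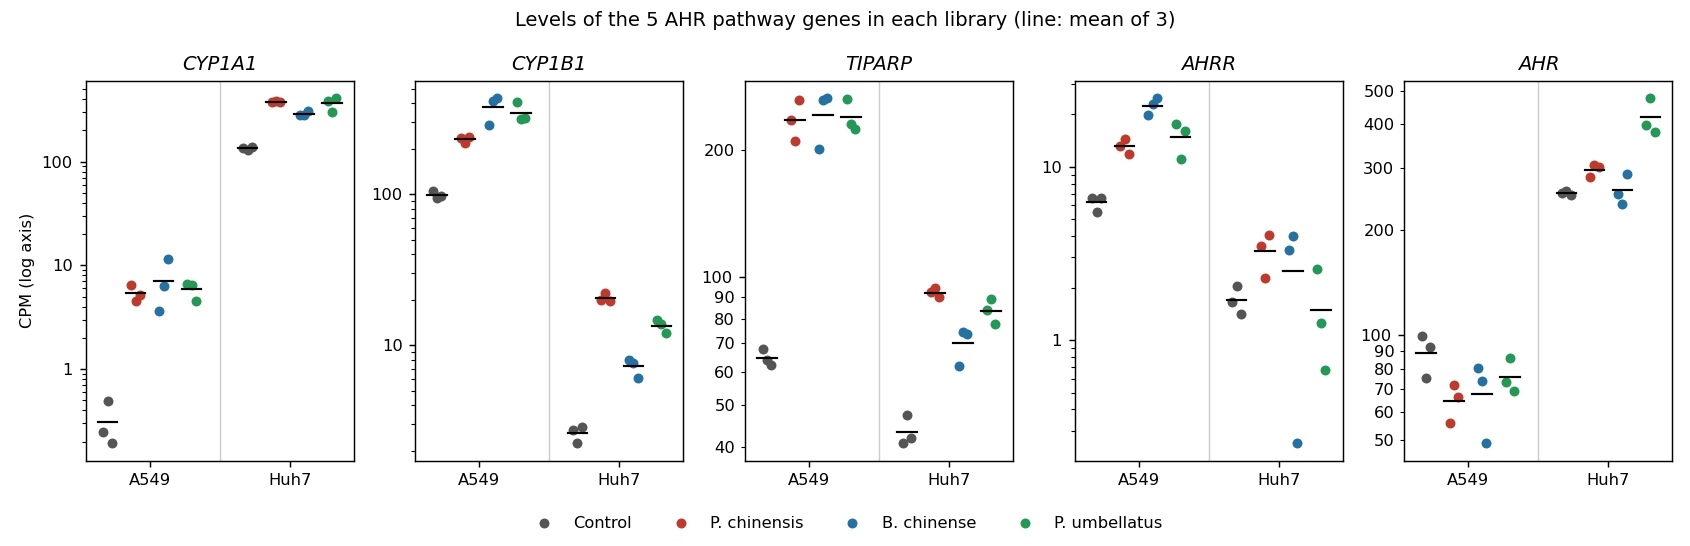
Level of each gene in each of the 24 libraries as CPM on a log axis, grouped by cell line and coloured by treatment, with a bar at the mean of 3 libraries. CYP1A1, CYP1B1 and TIPARP lie above the controls in all treated libraries of both lines, and AHRR does so in A549 cells.

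TIPARP, whose product modifies and restrains the receptor, rose by nearly the same amount with each herb in A549 cells. The controls gave 67.8, 64.0 and 62.3 CPM. The level was 234.3, 209.2 and 261.5 CPM with P. chinensis, 200.3, 261.0 and 264.0 CPM with B. chinense and 263.7, 229.7 and 224.0 CPM after P. umbellatus. The ranges of the herbs overlapped and all lay above the controls, with log2 fold changes of 1.83 ± 0.11, 1.86 ± 0.11 and 1.83 ± 0.11. The largest difference between any pair of herbs in A549 cells was 0.04 ± 0.11. In Huh7 cells the controls gave 40.7, 47.3 and 41.9 CPM. The level was 92.3, 94.4 and 89.7 CPM with P. chinensis, 62.0, 74.4 and 73.4 CPM with B. chinense and 83.7, 89.1 and 77.9 CPM after P. umbellatus. The groups did not overlap, and all lay above the controls. The log2 fold changes were 1.15 ± 0.09, 0.71 ± 0.09 and 1.0 ± 0.09, the last being 0.95 without replicate 2.

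AHRR, the repressor, rose with all 3 extracts in A549 cells. The controls of A549 gave 6.60, 5.50 and 6.64 CPM. The level was 13.2, 14.5 and 11.8 CPM with P. chinensis, 19.9, 22.9 and 24.8 CPM with B. chinense and 17.6, 11.0 and 16.0 CPM after P. umbellatus. Every treated library lay above the controls, and B. chinense lay above both other herbs. The log2 fold changes were 1.02 ± 0.19, 1.78 ± 0.19 and 1.17 ± 0.19. In Huh7 cells AHRR was near the limit of what this depth resolves, with 33, 33 and 34 counts in the controls, or 1.67, 2.05 and 1.43 CPM. P. chinensis gave 3.49, 2.30 and 4.02 CPM, above all controls, with a log2 fold change of 0.93 ± 0.61. The ratio of its summed counts was 1.88 (exact 95% counting interval from 1.47 to 2.42). This interval covers counting error only and leaves out the spread between replicates. The comparison of P. chinensis with control was not called in the fit of all 12 libraries and was called in the fit of the 6 libraries compared. B. chinense gave 3.32, 3.99 and 0.255 CPM, the last from 3 counts, and P. umbellatus gave 2.58, 1.25 and 0.675 CPM. Both overlapped the controls, at 0.54 ± 0.64 and -0.13 ± 0.69, or -0.05 without replicate 2. The treated Huh7 libraries of B. chinense and P. umbellatus were also less deep, at 7182444 to 11546100 counts, than the controls, at 16455709 to 24345541, and the part of depth in this result was not tested. AHRR overlaps other transcripts on chromosome 5, among them a readthrough transcript with its neighbour, so its reads may have been shared.

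AHR fell with P. chinensis in A549 cells, and rose with P. chinensis and P. umbellatus in Huh7 cells. In A549 cells the controls gave 99.0, 75.1 and 92.2 CPM. The level was 56.0, 71.7 and 66.2 CPM with P. chinensis, below all controls, with a log2 fold change of -0.48 ± 0.15. B. chinense gave 80.1, 73.8 and 48.8 CPM and P. umbellatus 73.2, 85.5 and 68.9 CPM, both overlapping the controls, with log2 fold changes of -0.42 ± 0.15 and -0.28 ± 0.15. Between herbs in A549 cells, P. chinensis minus B. chinense was -0.06 ± 0.16 and P. chinensis minus P. umbellatus was -0.20 ± 0.15. The fall is therefore not shown to be particular to P. chinensis. In Huh7 cells the controls gave 254.7, 258.4 and 251.7 CPM. P. chinensis gave 283.5, 305.3 and 302.3 CPM, and P. umbellatus 399.5, 475.1 and 381.4 CPM, both above all controls. B. chinense gave 252.7, 237.1 and 288.8 CPM, around the controls. The log2 fold changes in Huh7 cells were 0.28 ± 0.09 with P. chinensis, 0.04 ± 0.09 with B. chinense and 0.77 ± 0.09 after P. umbellatus, or 0.67 without replicate 2. The call for P. chinensis in A549 cells was lost without control replicate 1 or 3 or without P. chinensis replicate 1 or 3, and the call for P. chinensis in Huh7 cells was lost under 10 of 19 alternatives.

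**Figure D3:**
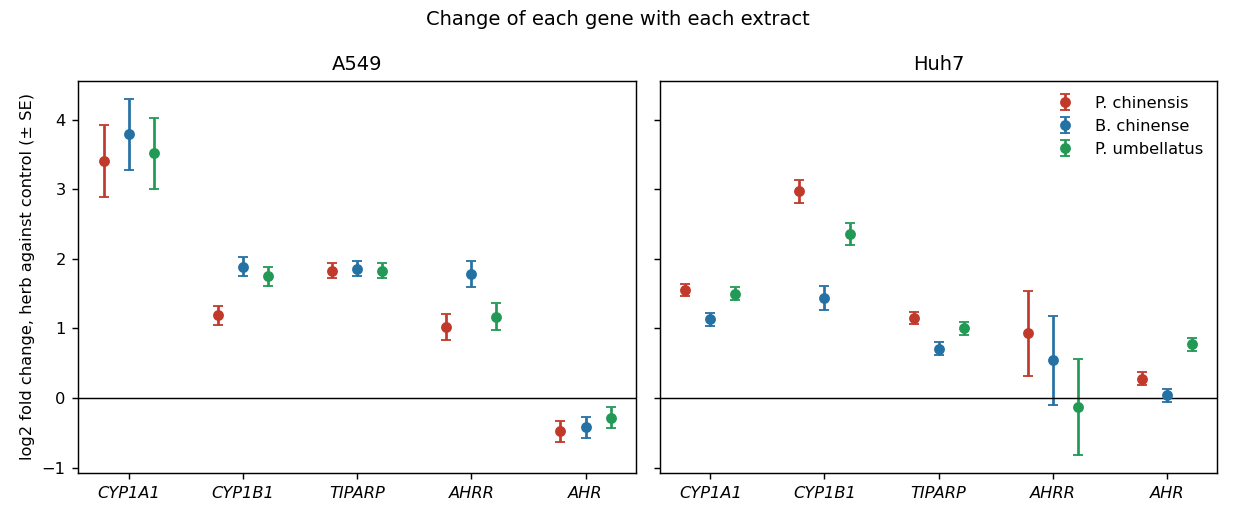
Fitted log2 fold change of each gene against the control of the same line, with bars of 1 standard error, for the 3 extracts in A549 (left) and Huh7 (right). CYP1A1 changed most in A549 cells, from 3.41 to 3.79, and CYP1B1 most in Huh7 cells, from 1.44 to 2.97.

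By the threshold used for all genes, an adjusted p below 0.05, CYP1A1, CYP1B1 and TIPARP were called higher in all 6 comparisons. In A549 cells 4 of the 5 genes were called higher with each herb. Of all genes tested, 15.7% were called higher there with P. chinensis, 13.1% with B. chinense, and 13.4% in the P. umbellatus comparison. AHR was called lower with P. chinensis alone, where 17.1% of genes were called lower. For B. chinense this share was 15%, and for P. umbellatus it was 14.8%. The AHR change with B. chinense, -0.42 ± 0.15, was close to that with P. chinensis, -0.48 ± 0.15, though only the latter passed the threshold. In Huh7 cells 4 of the 5 genes were called higher with P. chinensis and P. umbellatus, where 10.4% and 19.3% of all genes were. With B. chinense 3 of the 5 were called higher in Huh7 cells, where 0.519% of all genes were. None of the 5 was called lower in Huh7 cells, where the share of all genes called lower was 10.5% for P. chinensis, 0.757% for B. chinense and 17.8% for P. umbellatus. These counts follow from how the genes were chosen, and nothing is read from them.

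The response of the 5 genes was also set side by side between the lines, again as a description. CYP1A1 changed more in A549 cells, with a difference of 2.04 ± 0.59 on the log2 scale for P. chinensis, 2.77 ± 0.56 for B. chinense and 2.26 ± 0.57 for P. umbellatus. These CYP1A1 values were fitted with the same prior count on few A549 control reads. TIPARP also changed more in A549 cells, by 0.77 ± 0.15, 1.21 ± 0.15 and 0.94 ± 0.15. CYP1B1 changed more in Huh7 cells with P. chinensis, where A549 minus Huh7 was -1.67 ± 0.22, whereas it was 0.53 ± 0.24 with B. chinense and -0.47 ± 0.23 with P. umbellatus. For AHRR the differences were 0.19 ± 0.61, 1.31 ± 0.63 and 1.42 ± 0.67. For AHR they were -0.67 ± 0.19, -0.41 ± 0.19 and -0.94 ± 0.19. In CPM the gains ranked otherwise than in folds. Mean CYP1A1 went from 0.311 to 7.14 CPM with B. chinense in A549 cells and from 134.0 to 289.8 CPM in Huh7 cells.

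Ordered over the 8 groups by mean CPM, CYP1A1 was highest in Huh7 cells with P. chinensis, at 377.8 CPM, and that group overlapped the next, P. umbellatus at 364.7 CPM, which overlapped B. chinense at 289.8 CPM. All 4 Huh7 groups lay above all 4 A549 groups. CYP1B1 and AHRR had the reverse order, with all 4 A549 groups above all 4 Huh7 groups. For TIPARP the treated A549 groups were highest and overlapped each other, and the mean of untreated A549 cells, 64.7 CPM, lay below those of all treated Huh7 groups, with an overlap with B. chinense. AHR was highest in Huh7 cells with P. umbellatus, at 418.7 CPM, above all other groups.

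The wider pathway was described with lists of genes that are not among the 5 above, and these genes were tested. The lists were written with earlier results of these data known, so their p-values are not independent of those results. Of 34 genes of the receptor complex and other AHR-responsive genes tested in A549 cells, 8 rose and 8 fell with P. chinensis, 8 rose and 10 fell with B. chinense, and 8 rose and 8 fell with P. umbellatus. Over the 34 genes the medians of the log2 fold change were -0.05, 0.03 and -0.01, against 0.01, 0.00 and -0.01 over all genes. These counts stand beside the shares of all genes called in the same comparisons, given above as 15.7%, 13.1% and 13.4% higher and 17.1%, 15% and 14.8% lower. In Huh7 cells, of 33 such genes, 8 rose and 3 fell with P. chinensis, 1 rose and 2 fell with B. chinense, and 12 rose and 4 fell with P. umbellatus. The shares over all genes there were 10.4%, 0.519% and 19.3% higher and 10.5%, 0.757% and 17.8% lower. The medians of the 33 genes were 0.15, 0.00 and 0.19, against 0.01, 0.00 and 0.03 over all genes. Without control replicate 2, P. chinensis replicate 1 or P. chinensis replicate 2 the count of 8 that rose with P. chinensis in Huh7 cells became 5, and without control replicate 2 or 3 the count of 4 that fell with P. umbellatus became 1. The fit of the 6 libraries compared gave 6 and 1 in place of 12 and 4 for P. umbellatus, and 13 and 5 in place of 8 and 3 for P. chinensis, while without P. umbellatus replicate 2 the former counts were again 12 and 4.

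Several AHR-responsive genes rose with all 3 extracts in A549 cells. ALDH3A1, which oxidises aldehydes, went from 1306, 1310 and 1311 CPM in the controls to 2986, 3106 and 2455 CPM with P. chinensis. It reached 3532, 3634 and 3706 CPM with B. chinense and 3853, 3580 and 3564 CPM with P. umbellatus. No treated library overlapped a control, and the log2 fold changes were 1.09, 1.43 and 1.42, each with an SE of 0.06 (edgeR, adjusted p from 3.73e-09 to 1.39e-08). XDH, the enzyme that makes uric acid from xanthine, went from 8.96, 9.82 and 10.2 CPM to 29.7, 30.5 and 32.6 CPM with P. chinensis, a log2 fold change of 1.63 ± 0.13 (adjusted p = 1.84e-07). It rose by 1.11 with B. chinense and by 1.62 with P. umbellatus. The secreted glycoprotein gene STC2 rose by 0.59, 0.90 and 0.84, and the EGF receptor ligand gene EREG by 0.89, 0.66 and 0.86. In contrast SLC7A5, an amino acid transporter gene, fell by 0.67, 0.28 and 0.22, and the adaptor gene NEDD9 fell by 0.54, 0.79 and 0.86. CDKN1B, a cell cycle inhibitor gene, and VAV3, an exchange factor gene, fell with all 3 herbs as well, by 0.50 to 0.68. CYP1A2 changed by 0.14 to 0.40 with an SE of 0.35 and did not pass the test with any herb.

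In Huh7 cells AREG, another EGF receptor ligand gene, went from 10.1, 10.3 and 10.1 CPM in the controls to 32.4, 31.3 and 34.9 CPM with P. chinensis, a log2 fold change of 1.74 ± 0.13 (edgeR, adjusted p = 2.88e-06). With P. umbellatus it rose by 0.80 ± 0.13 (adjusted p = 0.00148). UGT1A1, which attaches glucuronic acid to bilirubin and drugs, rose by 1.24 with P. chinensis, 0.74 with B. chinense and 1.56 after P. umbellatus, each with an SE of 0.15. It shares exons with the other genes of its locus, including UGT1A6, so its count is uncertain. EREG rose by 0.67 with P. chinensis and 0.95 with P. umbellatus. STC2 fell with all 3 herbs in Huh7 cells, from 68.8, 78.7 and 73.5 CPM to between 40.8 and 50.2 CPM in the treated libraries, by 0.61, 0.70 and 0.57. NQO1, a quinone reductase, fell by 0.43 with P. chinensis and by 0.27 with B. chinense in Huh7 cells, while in A549 cells it rose by 0.14 with B. chinense and 0.19 with P. umbellatus. ALDH3A1 stayed at or below 1.77 CPM in all Huh7 libraries.

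The chaperones that hold the receptor fell in A549 cells. HSP90AA1 fell by 0.42, 0.39 and 0.43 on the log2 scale, with the herbs in the order used above, HSP90AB1 by 0.23, 0.28 and 0.28, and PTGES3, which encodes p23, by 0.33, 0.30 and 0.31. In Huh7 cells both HSP90 genes rose with P. umbellatus, by 0.31 and 0.18. RELB, a subunit of NF-κB that can bind AHR, rose in A549 cells from 12.3, 16.3 and 18.0 CPM to 43.0, 36.2 and 40.3 CPM with P. chinensis, a log2 fold change of 1.31 ± 0.13 (edgeR, adjusted p = 2.98e-06), and by 0.98 and 0.99 with the other herbs. In Huh7 cells it fell by 0.60 ± 0.21 with P. umbellatus (adjusted p = 0.0393), a call that was lost in the fit of the 6 libraries compared, without control replicate 2 or 3, without P. chinensis replicate 1 or 3 and without P. umbellatus replicate 1 or 2. ARNT2, an alternative partner of AHR, rose in A549 cells by 0.22, 0.29 and 0.39. ARNT, the usual partner, rose in Huh7 cells by 0.33 ± 0.07 with P. chinensis (adjusted p = 0.0037) and 0.22 ± 0.07 with P. umbellatus (adjusted p = 0.0241). The corepressor gene NRIP1 rose in Huh7 cells by 0.37 with P. chinensis and 0.57 with P. umbellatus, and the coactivator genes NCOA1 and NCOA3 by 0.50 and 0.41 with P. umbellatus. Without P. umbellatus replicate 2 the values for that herb were 0.53 for NRIP1, 0.51 for NCOA1, 0.35 for NCOA3 and -0.47 for RELB, which was then no longer called, and the calls of NCOA1 and NCOA3 were lost in the fit of the 6 libraries compared.

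**Figure D4:**
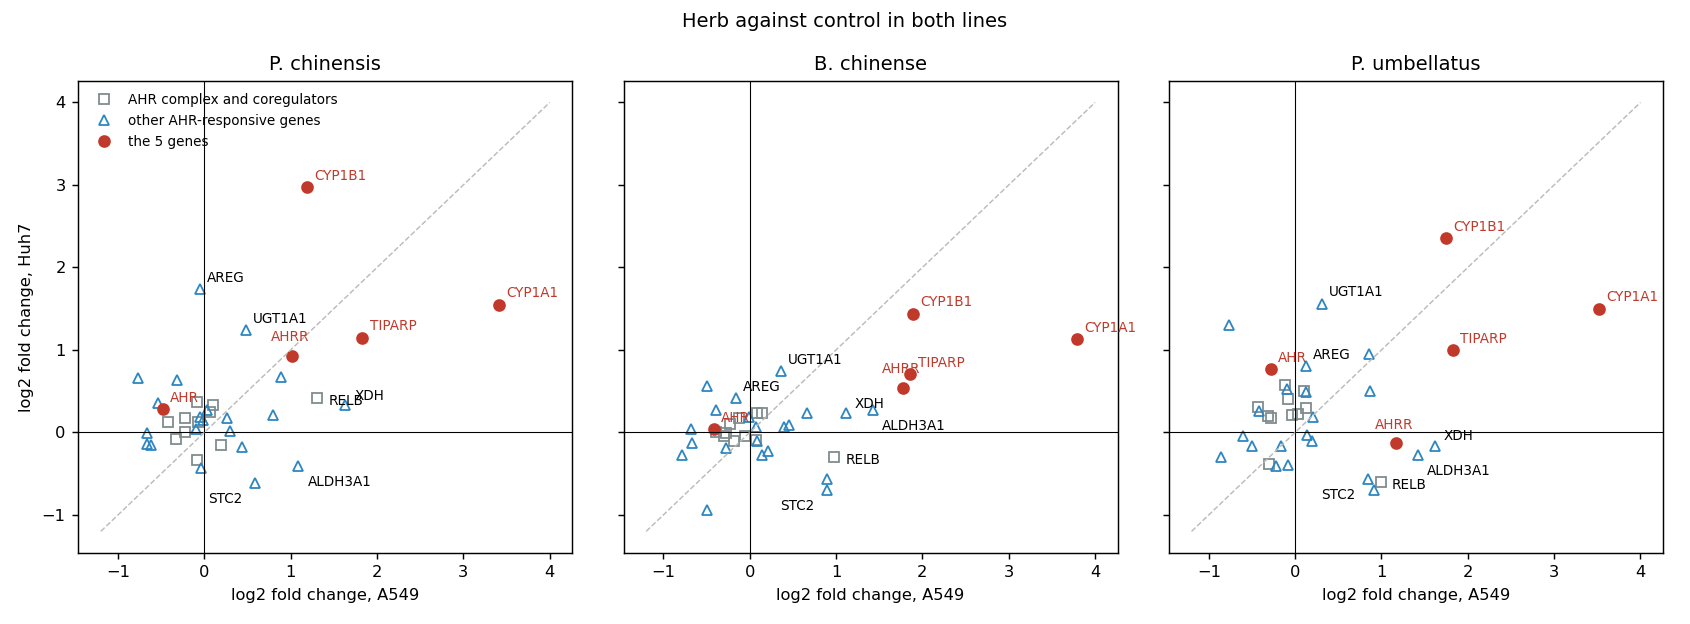
Log2 fold change against control in A549 (horizontal axis) and Huh7 (vertical axis) for each herb, with the 5 genes filled, genes of the receptor complex as squares, other AHR-responsive genes as triangles and equal change as a dashed line. CYP1A1 and TIPARP lie below the dashed line with every herb, and CYP1B1 lies above it with P. chinensis and P. umbellatus.

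The difference in response between the lines was tested for the genes of these lists as an interaction. Of 35 genes, 18 differed for P. chinensis, 13 for B. chinense and 16 for P. umbellatus, where 17.6%, 9.84% and 29.4% of all 14585 genes did. The 18 include ARNT2 and PTGS2, which had 0 counts in untreated Huh7 cells. With P. chinensis they had 7 and 6 counts in all there, so their change in Huh7 cells rests on almost no reads. STC2 differed in direction, with A549 minus Huh7 at 1.28 ± 0.16 for P. chinensis, 1.65 ± 0.16 for B. chinense and 1.53 ± 0.16 for P. umbellatus (edgeR, adjusted p from 6.5e-07 to 4.72e-06). AREG differed by -1.70 ± 0.15 for P. chinensis (adjusted p = 4.63e-08), as it was nearly level in A549 cells, at 59.6 to 65.2 CPM in the controls and 57.0 to 64.4 CPM with P. chinensis.

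Genes of neighbouring pathways were counted beside these. Of 9 other bHLH-PAS genes tested in each line, between 0 and 3 rose and between 0 and 2 fell in any comparison. ARNTL2 (BMAL2), a circadian factor, rose most in A549 cells, by 0.75 ± 0.05 with P. chinensis (edgeR, adjusted p = 1.02e-07), and NPAS2 fell most in Huh7 cells, by 0.64 ± 0.09 with P. chinensis (adjusted p = 0.000299). In A549 cells NPAS2 rose by 0.29 and the hypoxia factor gene EPAS1 fell by 0.28 with P. umbellatus, and HIF1A fell by 0.26 with B. chinense. In Huh7 cells with P. umbellatus ARNTL2, CLOCK and HIF1A rose by 0.46, 0.42 and 0.31, but all 3 calls were lost in the fit of the 6 libraries compared. Without P. umbellatus replicate 2 the values were 0.36, 0.28 and 0.20, and HIF1A was no longer called. Among P450 genes and regulators tied to other xenobiotic receptors, 5 were tested in A549 and 8 in Huh7 cells, and at most 1 rose and 1 fell in any comparison. CYP3A5 rose in A549 cells from 2.49, 2.36 and 1.64 CPM to 5.37, 10.4 and 9.11 CPM with P. chinensis, by 1.83 ± 0.33 (adjusted p = 0.000413). POR, which passes electrons to P450 enzymes, fell by 0.18 with P. chinensis in A549 cells and by 0.74 with P. umbellatus in Huh7 cells, and CYP2C19 rose by 0.59 with P. chinensis in Huh7 cells. The value of POR in Huh7 cells was -0.53 without P. umbellatus replicate 2, and its call was lost in the fit of the 6 libraries compared. The call of CYP2C19 was lost without any 1 library of control, P. chinensis or B. chinense, and that of POR in A549 cells without control replicate 2 or P. chinensis replicate 2 or 3. Of 15 NRF2 target genes, which defend against oxidants, 2 rose and 8 fell in A549 cells with P. chinensis, 5 rose and 2 fell with B. chinense, and 4 rose and 3 fell with P. umbellatus. In Huh7 cells 4 rose and 3 fell, 1 rose and 1 fell, and 8 rose and 2 fell in the same order. The shares of all genes called are those given for the lists above, between 0.519% and 19.3% higher and between 0.757% and 17.8% lower. HMOX1, which breaks down haem, went from 31.4, 36.2 and 32.1 CPM to 141.0, 153.5 and 156.3 CPM in Huh7 cells with P. chinensis, by 2.23 ± 0.17 (adjusted p = 4.01e-06). In A549 cells it rose by 0.42 with P. umbellatus. With P. chinensis PGD, of the pentose phosphate pathway, fell by 0.55 in A549 cells, GCLC, of glutathione synthesis, by 0.45 and the reductase gene AKR1B10 by 0.37, while the cystine transporter gene SLC7A11 fell by 0.88 in Huh7 cells. With P. umbellatus AKR1B10 rose by 0.75 and TKT fell by 0.70 in Huh7 cells. Without replicate 2 of that group the values were 0.85 and -0.41, and both calls were lost in the fit of the 6 libraries compared, that of TKT also without any 1 control. Marker genes moved with the same treatments in both lines. In Huh7 cells with P. chinensis the summed level of the 7 hepatocyte markers was 11320 to 12050 CPM against 19430 to 19680 CPM in the controls. ALB, APOB and TF fell, FGB rose by 0.69 and the other 3 were not called. Of the 4 fibroblast markers, COL1A1 and COL1A2 rose by 2.0 ± 0.68 and 1.3 ± 0.24 in that group. COL3A1, at 1.0 ± 0.65, and DCN, at -0.11 ± 0.25, were not called there. The summed level of the 4 was 16.0 to 24.5 CPM against 8.89 to 11.5 CPM in the controls. With P. umbellatus APOA1, TTR and TF fell and FGB rose by 0.44. KRT18 rose by 0.36 with P. chinensis and FGB by 0.43 with B. chinense in Huh7 cells. In A549 cells KRT18 fell by 0.26, 0.27 and 0.30 and FGB by 2.35, 1.89 and 1.98, with the herbs in the order used above. With P. umbellatus KRT8 fell there by 0.19 and EPCAM by 1.88. CD68 rose in A549 cells by 0.57 with P. chinensis and 0.37 with P. umbellatus. The other markers tested in A549 cells were not called. The part of these markers in the changes above was not tested.

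The genes whose 6 log2 fold changes were most like those of a member were found among the 9952 genes whose mean reached 50 counts in both lines. The mean absolute difference over the 6 comparisons served as the measure, and comparisons in a line share their controls. For TIPARP the nearest were PARP11 at 0.25, ATOSA at 0.29 and LACC1 at 0.32. PARP11 changed by 2.12, 1.93 and 1.67 in A549 cells and by 0.91, 1.44 and 1.03 in Huh7 cells. For CYP1A1 the nearest were ATF3 at 0.96, CDKN1A at 1.06 and PARP11 at 1.07. CYP1B1 was nearest to BIRC3 at 0.52, CRISPLD2 at 0.64 and TUBA1A at 0.69. AHRR was nearest to ZFHX2 at 0.23, SMPD1 at 0.23 and YPEL2 at 0.24, and AHR to PTP4A1 at 0.08, ZFP1 at 0.08 and FAM210A at 0.09.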

How the data were processed

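RNA of 24 libraries was extracted, depleted of ribosomal RNA and sequenced by the authors as stranded paired-end total RNA. Reads were checked with FastQC and quantified with kallisto against Ensembl GRCh38.p13 transcripts, as the submitters' processing notes and the methods give it. The authors filtered for protein-coding genes of a mean count over 5, and the estimated counts were deposited rounded to whole numbers and not scaled for library size. kallisto shares reads among similar transcripts, which can move counts between related or overlapping genes. Versions of both tools are not given in the sources used here.

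Symbols were taken from gene identifiers, and 14584 of 14585 matched. Groups followed the treatment and cell line labels. Counts were analysed in R 4.3.3 with edgeR 4.0.16. CPM are counts scaled by TMM over all 24 libraries. Each line was fitted with its 12 libraries on genes with a mean above 5 counts (13634 in A549, 13876 in Huh7), and untreated lines and interactions with all 24, by the quasi-likelihood test with a prior count of 2 and Benjamini-Hochberg adjustment over all genes tested. Genes with an adjusted p below 0.05 were called, and rose or fell is used for called genes only. All tests were two-sided. Printed fold changes include the prior count. Each SE was derived from the F statistic of the test and the estimate without the prior count. Where counts are few, the SE therefore belongs to a larger estimate than the printed one. The members and gene lists were chosen with earlier results of these data known. All 5 members are named in every library. From each list up to 4 called genes of largest change per line were named, and further list genes given above were chosen after their values were seen. For each member the 3 genes with the nearest pattern were named. The authors' study used DESeq2, here an alternative (1.42.0) with RLE size factors, no filter or a mean above 20 counts, the 6 libraries compared, the replicate number as a block, and each replicate left out. For the interactions only DESeq2, RLE size factors and the block were run. A prior count of 0.125 was added after seeing the data. The fits were tested on simulated data with known changes.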

Additional observations from a re-analysis of the deposited data

Results flagged for a closer look

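The following differ between the lines, given as A549 minus Huh7 on the log2 scale. For AHR with P. chinensis, all treated A549 libraries lay below their controls and all treated Huh7 libraries above theirs, with a difference of -0.67 ± 0.19 (SE), which was not tested because the gene was chosen on these contrasts. The others were called by the interaction test of edgeR over 14585 genes (adjusted p below 0.05, n = 3 per group). They are only a part of the genes called. With P. chinensis HES1 at -0.87, NEDD9 at -0.81 and NQO1 at 0.47 were among those called and not listed.

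With P. chinensis the differences were 1.56 for ALDH3A1, 1.39 for XDH, 1.28 for STC2, 0.98 for RELB, -0.32 for NCOA3, -0.36 for NRIP1, -0.45 for HSP90AA1 and -1.70 for AREG. With B. chinense they were 1.65 for STC2, 1.34 for RELB, 1.23 for ALDH3A1, 0.94 for XDH, 0.48 for EREG, -0.33 for HSP90AA1 and -0.52 for AREG. With P. umbellatus they were 1.90 for XDH, 1.80 for ALDH3A1, 1.71 for RELB, 1.53 for STC2, -0.37 for NCOA3, -0.39 for PTGES3, -0.57 for NRIP1, -0.57 for AREG, -0.63 for HSP90AA1 and -1.13 for UGT1A1. ALDH3A1 gave 5 to 34 counts in the Huh7 libraries, so its difference rests on few reads there.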

How the results depend on the processing

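Of 570 values of the 5 genes against control under alternatives, 550 kept their direction and side of the threshold, including all of those for CYP1A1, CYP1B1 and TIPARP. As the genes were chosen on these contrasts, this count describes the fits and is no test of the response. The alternatives also include fits that left out a library of a herb outside the comparison. AHRR in Huh7 cells with P. umbellatus turned to 0.24 without P. umbellatus replicate 3 (range without 1 library -0.75 to 0.24), and AHR in Huh7 cells with B. chinense to -0.04 without B. chinense replicate 3 (range -0.04 to 0.10), neither called. AHRR with P. chinensis in Huh7 cells passed the threshold in the fit of the 6 libraries compared (0.95), and AHR with B. chinense in A549 cells passed it with DESeq2 (-0.42), without control replicate 2 and without B. chinense replicate 1 (-0.53 each). The call of AHR with P. chinensis in Huh7 cells was lost with RLE size factors (0.27), with the replicate block (0.28), without any 1 library of control or P. chinensis and without B. chinense replicate 1 or 2. The fitted change of CYP1A1 in A549 cells became 4.07, 4.47 and 4.19 with DESeq2. Of 36 values of named pathway genes, 11 lost their call under at least 1 alternative. The fit of the 6 libraries compared ended the calls of RELB, NCOA1, NCOA3, ARNTL2, CLOCK, HIF1A, POR, AKR1B10 and TKT with P. umbellatus in Huh7 cells. Leaving out 1 library also ended the calls of CYP2C19 in Huh7 cells (any library of control, P. chinensis or B. chinense), of POR in A549 cells (control replicate 2 or P. chinensis replicate 2 or 3), of TKT (any control) and of HIF1A (control replicate 2 or 3, P. chinensis replicate 1 or 2, B. chinense replicate 3 or P. umbellatus replicate 2). All 5 baseline differences kept direction and call.

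Counts of pathway genes in A549 cells, between the untreated lines and in the interactions stayed within 1.5 times. The interactions were refitted only with DESeq2, RLE size factors and the replicate block. Their dependence on a single library was not tested. In Huh7 cells, the fit of the 6 libraries compared gave 13 up and 5 down with P. chinensis (from 8 and 3), 3 up with B. chinense (from 1) and 6 up and 1 down with P. umbellatus (from 12 and 4). With B. chinense, DESeq2 gave 2 up, and the replicate block 0 up and 1 down. Leaving out 1 library gave 5 to 11 up with P. chinensis, 0 to 4 up and 1 to 2 down with B. chinense, and 1 to 5 down with P. umbellatus in Huh7 cells. The cause of these shifts was not tested. The replicate numbers did not pair the samples, as correlations of the deviations of same-numbered samples ran from -0.063 to 0.046, and the block changed no other count by over 1.5 times. The fit of all 24 libraries was not repeated without the filter on low counts. Every gene of the table has a mean above 5, so the filter removed none there. CYP1A1 in untreated A549 cells (9 counts in all) and AHRR in Huh7 cells rest on few counts.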
